A study of Mus musculus with 4 samples.

Results

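The regions described are the accessible chromatin of mouse chromosomes 12 and 19 in a cultured kidney cell line. Peaks of 4 ATAC-seq libraries that overlapped by at least 1 bp were merged into regions, and every region on either chromosome was kept, which gave 84114 regions (54137 on chromosome 12 and 29977 on chromosome 19) of 560228 in the genome (mm10). The chromosomes were chosen by measured values, namely for having the most peaks per Mb, so their density is given as a description with no test. The cells were mpkCCD clone 11, a line of mouse cortical collecting duct cells, held in medium free of serum and hormones and treated for 30 minutes with 0.1 nM dDAVP, an analog of vasopressin that acts on the V2 receptor, or with vehicle. Each treatment has 2 libraries made from 50000 cells apiece, and each library has a list of peaks of its own. Both treatments share the clone, the earlier culture with serum and dexamethasone, and the growth on permeable supports. Nothing in the labels tells whether replicates are separate cultures, and their spread may thus be technical. The lists held 291454 and 205771 peaks for dDAVP replicates 1 and 2 and 393956 and 206972 peaks for vehicle replicates 1 and 2. They give positions alone: how many reads lie behind a peak and how many copies of a chromosome or stretch the cells carry are unknown, so a density is a count of called peaks per Mb of the assembly, and where no peak is listed none was called, which does not show closed chromatin. At the ends of 8 principal cell markers, genes of the collecting duct cell that answers to vasopressin, a peak was present in all 4 libraries at 6, Aqp2 among them, and in 2 libraries each at the V2 receptor gene Avpr2 and the sodium channel gene Scnn1b.

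In ATAC-seq a transposase inserts adapters into DNA that nucleosomes leave exposed, and places with many insertions are called as peaks. Such places are typically promoters, many of which lie in stretches rich in CpG dinucleotides, and enhancers, which can lie in introns or far from any gene.

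The promoters below show both kinds of gene start found on these chromosomes, those under a peak in all 4 libraries and those under none. Each is the 250 bases before the outermost start in the promoter table, 5′ to 3′ on the gene's own strand, from RefSeq on GRCm38.p6, the assembly behind mm10, with CpG dinucleotides in capitals. The gene table lets Flrt2 begin further out, at position 95692006, so most of its bases shown lie inside the gene as placed there. The first 4 lay under a peak in every library.
Fos, chr12:85473640-85473889, plus strand: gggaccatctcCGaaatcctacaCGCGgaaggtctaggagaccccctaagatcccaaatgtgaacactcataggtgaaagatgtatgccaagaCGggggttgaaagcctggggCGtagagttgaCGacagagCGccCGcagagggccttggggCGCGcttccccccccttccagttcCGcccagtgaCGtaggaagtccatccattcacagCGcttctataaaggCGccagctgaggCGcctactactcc
Irf2bpl, chr12:86884815-86885064, minus strand: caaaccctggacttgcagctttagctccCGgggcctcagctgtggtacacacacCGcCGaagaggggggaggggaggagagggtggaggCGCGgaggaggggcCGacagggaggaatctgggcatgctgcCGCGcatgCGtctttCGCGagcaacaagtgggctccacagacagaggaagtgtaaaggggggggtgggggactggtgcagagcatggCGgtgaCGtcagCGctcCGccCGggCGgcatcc
Klf9, chr19:23140976-23141225, plus strand: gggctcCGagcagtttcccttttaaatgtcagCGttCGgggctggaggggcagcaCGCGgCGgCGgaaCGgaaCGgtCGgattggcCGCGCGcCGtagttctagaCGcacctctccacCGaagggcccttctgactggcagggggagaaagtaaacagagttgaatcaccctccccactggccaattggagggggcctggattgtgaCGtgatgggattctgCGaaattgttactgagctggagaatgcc
Nfkbia, chr12:55492648-55492897, minus strand: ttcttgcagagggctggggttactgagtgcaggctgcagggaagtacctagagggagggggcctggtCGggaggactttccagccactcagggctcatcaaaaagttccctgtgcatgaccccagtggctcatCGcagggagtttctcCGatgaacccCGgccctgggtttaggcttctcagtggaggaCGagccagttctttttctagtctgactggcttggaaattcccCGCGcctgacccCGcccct
No library had a peak over the next 4.
Crip1, chr12:113151762-113152011, plus strand: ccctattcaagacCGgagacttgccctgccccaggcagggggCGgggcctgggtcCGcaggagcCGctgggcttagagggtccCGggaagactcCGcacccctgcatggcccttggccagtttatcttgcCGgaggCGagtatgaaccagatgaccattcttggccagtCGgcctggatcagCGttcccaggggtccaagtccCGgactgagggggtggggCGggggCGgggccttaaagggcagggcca
Flrt2, chr12:95691976-95692225, plus strand: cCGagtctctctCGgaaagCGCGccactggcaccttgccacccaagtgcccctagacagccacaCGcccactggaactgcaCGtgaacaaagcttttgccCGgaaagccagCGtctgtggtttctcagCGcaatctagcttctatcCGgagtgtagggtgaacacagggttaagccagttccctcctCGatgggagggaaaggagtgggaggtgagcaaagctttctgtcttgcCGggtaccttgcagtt
Cyp2c65, chr19:39060756-39061005, plus strand: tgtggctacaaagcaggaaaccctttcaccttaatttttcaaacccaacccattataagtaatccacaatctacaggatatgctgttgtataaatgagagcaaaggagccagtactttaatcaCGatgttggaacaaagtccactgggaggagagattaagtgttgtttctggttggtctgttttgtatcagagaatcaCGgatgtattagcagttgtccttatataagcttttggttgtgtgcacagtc
Olfr1442, chr19:12673929-12674178, plus strand: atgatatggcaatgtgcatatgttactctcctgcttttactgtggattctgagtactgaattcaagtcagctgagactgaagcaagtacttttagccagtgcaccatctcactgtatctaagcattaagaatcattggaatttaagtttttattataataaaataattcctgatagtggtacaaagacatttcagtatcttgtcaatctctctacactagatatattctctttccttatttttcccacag
Fos and Klf9 encode transcription factors of the early response, Nfkbia the inhibitor of NF-kB, and Irf2bpl a protein with a zinc finger and a RING domain. Crip1 encodes a small LIM domain protein, Flrt2 a cell adhesion protein, Cyp2c65 a cytochrome P450 and Olfr1442 an odorant receptor. Gene models of odorant receptors can lack their untranslated first exons, so the bases before Olfr1442 need not be its promoter. The covered sequences of Fos, Irf2bpl, Klf9 and Nfkbia hold 15, 17, 18 and 8 CpG, and the uncovered ones of Crip1, Flrt2, Cyp2c65 and Olfr1442 hold 13, 12, 2 and 0. Crip1 and Flrt2 thus lie within the range of the 4 covered promoters, and Cyp2c65 and Olfr1442 below it.

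Both chromosomes were denser in peaks than any other in each library. Chromosomes 12 and 19 together held 279 and 192 peaks per Mb in dDAVP replicates 1 and 2 and 355 and 197 in vehicle replicates 1 and 2, where length is counted between the first and last peak of a chromosome. The other chromosomes held 101 and 71.4 peaks per Mb in the dDAVP libraries and 138 and 71.6 in the vehicle libraries. The ratio between them was therefore 2.77 and 2.69 in the dDAVP libraries and 2.57 and 2.75 in the vehicle libraries, although the lists differ in length. Over the libraries the median was 262 peaks per Mb on chromosome 19 and 226 on chromosome 12, the least dense chromosome that was kept, against 168 on chromosome 16, the densest that was not.

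**Figure D1:**
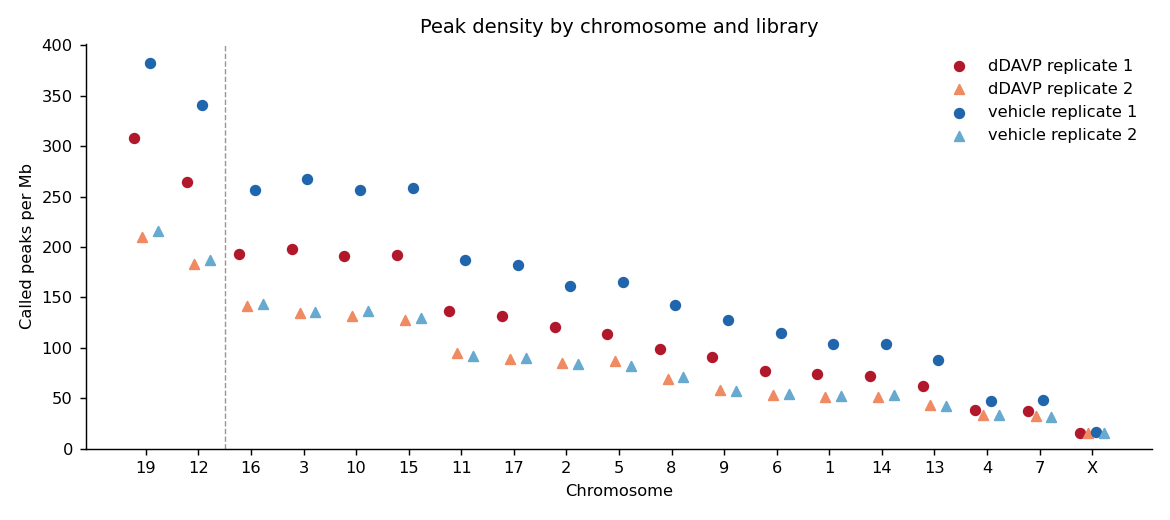
Called peaks per Mb (vertical axis) for each chromosome (horizontal axis), 1 point per library; chromosome 18 is not drawn. In each library chromosomes 19 and 12, left of the dashed line, lie above the others, with medians of 262 and 226 peaks per Mb against 168 on chromosome 16.

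Compared by chromosome, density did not follow the number of genes alone. Chromosome 12 has 679 protein-coding genes, 5.80 per Mb, and held 79.7 regions per gene. Chromosome 19 is gene-rich, with 705 genes or 12.1 per Mb, and held 42.5 regions per gene, against 23.4 on the other chromosomes. By this measure chromosome 19 lay below chromosomes 3 (59.8), 16 (51.9), 15 (47.2) and 10 (46.9), so it was not set apart. Regions covered 18.6% of chromosome 12 and 21.4% of chromosome 19, against 7.17% of the other chromosomes.

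Both chromosomes had proportionally fewer regions seen in a single library. Of the 84114 regions, 14631 (17.4%) had a peak in all 4 libraries and are called shared here, against 15.4% on the other chromosomes and 15.7% in the whole genome. Another 45.4% came from 1 library, against 54.6% on the other chromosomes, and 18862 of them (22.4% of all regions) from vehicle replicate 1, the longest list. Taken singly, chromosome X had a smaller share from 1 library (37.2%) than chromosomes 12 (46.1%) and 19 (44.1%). Chromosomes X, 4 and 7, the least dense of those compared, had more shared regions (32.9%, 28.3% and 27.0%) than chromosomes 12 (16.7%) and 19 (18.6%). Widths were alike among shared regions and among regions of 1 library, but not over all regions. Shared regions had a median width of 778 bp on chromosome 12, 797 bp on chromosome 19 and 768 bp elsewhere. Regions of 1 library had 158, 154 and 152 bp. Over all regions the medians were 289 bp on chromosome 12 and 302 bp on chromosome 19, against 251 bp on the other chromosomes.

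The excess was smallest at gene ends. Regions were placed at a gene end (within 1 kb of either outer end of a protein-coding gene), otherwise inside a gene or outside genes. Per Mb of each kind of place, shared regions on chromosomes 12 and 19 numbered 278 at gene ends, 90.8 inside genes and 69.3 outside genes, against 185, 28.6 and 23.7 on the other chromosomes. These are 1.50-fold, 3.17-fold and 2.93-fold. Of all regions, 3.70% lay at a gene end, 41.9% inside and 54.4% outside genes, against 6.13%, 43.3% and 50.6% elsewhere. Many of those outside lay far from genes on chromosome 12, where 61.3% were over 50 kb from the nearest one, and fewer did on chromosome 19 (42.9%) or elsewhere (47.7%).

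Shared regions at gene ends were the widest, with a median of 1232 bp against 758 bp inside and 752 bp outside genes. On the other chromosomes the medians were lower, at 1142, 719 and 680 bp, with gene ends again the widest. The widest shared regions were nevertheless spread over all 3 kinds of place, and they are taken by the mean rank of their widest peak over the 4 libraries. On chromosome 12 the first by this measure lay inside Akap6, a gene for a protein that anchors protein kinase A (chr12:52927784-52932473), with peaks of 4516 and 3854 bp in the dDAVP libraries and 4009 and 4121 bp in the vehicle libraries. One outside genes, 134 kb from Max, the partner of the Myc proteins (chr12:77096446-77101432), had 3374 and 4657 bp in the dDAVP libraries and 4968 and 3997 bp in the vehicle libraries. The widths vary by library, the second region exceeds the first in dDAVP replicate 2 and vehicle replicate 1, and the groups overlap at both. Others lay inside Pxdn (basement membrane peroxidase), Foxn3 (a forkhead factor) and Slc8a3 (a sodium-calcium exchanger), and 1 covered the end of Irf2bpl, whose promoter is shown above (3564 and 3245 bp in the dDAVP libraries, 3324 and 3386 bp in the vehicle libraries).

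On chromosome 19 gene ends led. The region at Smarca2, an ATPase of SWI/SNF remodelling complexes, had 3163 and 2978 bp in the dDAVP libraries and 3186 and 3205 bp in the vehicle libraries. At Lzts2 the peak was narrower in the dDAVP libraries (2157 and 2851 bp) than in the vehicle libraries (4345 and 4215 bp), with no overlap, a gene singled out after its values were seen, and 2 against 2 libraries cannot pass a test. Others of the widest regions lay at Csf2ra (a GM-CSF receptor chain), 3.78 kb from Frmd8 and 4.62 kb from Klf9.

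Along the chromosomes, density came in broad blocks. In bins of 1 Mb, chromosome 12 held between 185 and 690 regions (median 522 over 117 bins) and chromosome 19 between 253 and 685 (median 538 over 58 bins), against a median of 157 in 2299 bins elsewhere. Of the bins, 53.0% on chromosome 12 and 65.5% on chromosome 19 held 500 regions or more, against 8.57% elsewhere. The bins elsewhere leave out chromosome 18. The limits of 500 and 300 were set after the data were seen. Genes were counted in the bin of their midpoint. Bins under 300 regions, 29 on chromosome 12 and 4 on chromosome 19, lay in runs of 1 to 6 bins with few genes by this count. On chromosome 12 the longest such runs were 92 to 98 Mb (2 genes in 6 bins, median 224 regions), 45 to 50 Mb (2 genes) and 60 to 65 Mb (7 genes), and on chromosome 19 the run at 49 to 52 Mb (1 gene). Even the 17 bins of chromosome 12 with no gene had a median of 233 regions, above the median of bins elsewhere. Across bins, Spearman's rho between regions and genes was 0.67 on chromosome 12 (117 bins) and 0.28 on chromosome 19 (58 bins), and between shared regions and genes 0.76 and 0.75. The points share the same 4 libraries, so these are descriptions.

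**Figure D2:**
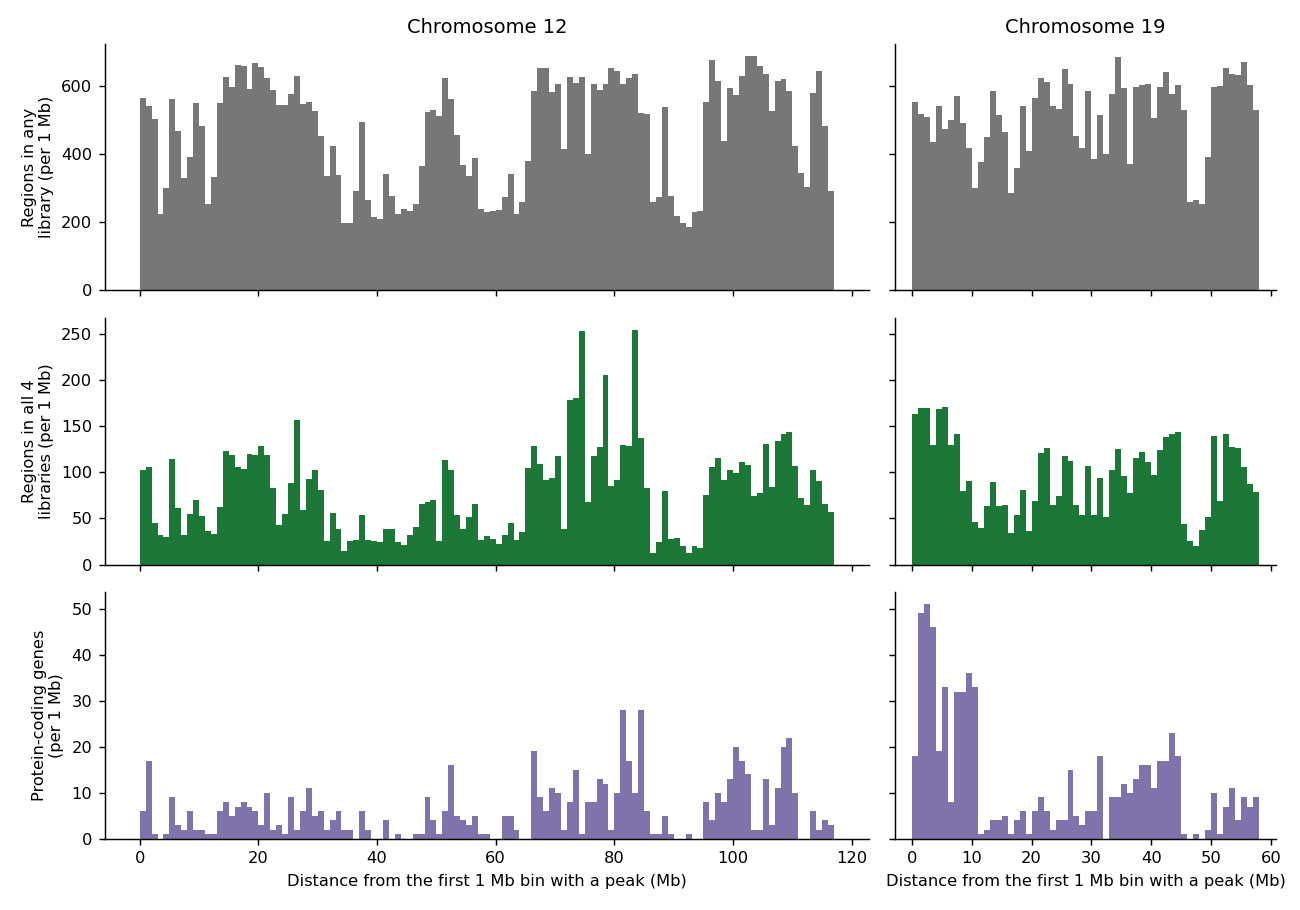
Regions in any library (top), regions in all 4 libraries (middle) and protein-coding genes (bottom) in bins of 1 Mb, by distance along each chromosome from the first bin with a peak. Regions range from 185 to 690 per bin on chromosome 12 and from 253 to 685 on chromosome 19, and shared regions reach 254 in a bin of chromosome 12.

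The bins with the most shared regions differed in kind between the chromosomes. On chromosome 12 they were at 86 to 87 Mb (254 shared regions, 10 genes), 77 to 78 Mb (253, with Fut8 as its 1 gene) and 81 to 82 Mb (205, 12 genes). On chromosome 19 they were gene-dense, at 8 to 9 Mb (171 shared regions, 33 genes, the Slc22a transporters among them), 4 to 5 Mb (170, 49 genes) and 5 to 6 Mb (170, 51 genes). The gene-holding bins with the fewest were those of Nrxn3, a synaptic adhesion gene (13 shared regions at 89 to 90 Mb), Flrt2 (13 at 95 to 96 Mb), and Agmo with Meox2 (15 at 37 to 38 Mb) on chromosome 12. On chromosome 19 they were those of the sorting receptor gene Sorcs1 (20), the nuclear receptor gene Rorb (34) and the channel gene Trpm3 (36).

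Within chromosome 12, shared regions were concentrated in 7 short stretches. In windows of 100 kb, 22 of 1171 windows on chromosome 12 (1.88%) held 30 shared regions or more, against none of 584 on chromosome 19, whose highest was 25, and 20 of 23971 on the other chromosomes (0.0834%). The limit of 30 was set after the data were seen. Joined across single windows just under the limit, these made 7 stretches of 2.3 Mb in all, 1.97% of the chromosome's span with 885 or 9.77% of its shared regions. Inside them 61.4% of regions were shared, against 15.5% in the rest of chromosome 12. Among the other chromosomes, chromosome 8 came next, with 4 stretches of 900.0 kb in all.

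Windows around the stretches held fewer shared regions, which follows from the limit, and the fall was stepped at some edges. At Syne2, which encodes a nesprin of the nuclear envelope, and its neighbour Sgpp1, a sphingosine phosphate phosphatase gene (chr12:75700001-76100000), the 4 windows held 37 to 55 shared regions and the 16 windows within 0.8 Mb on either side 0 to 20. At Fut8, a fucosyltransferase gene (chr12:77100001-77600000), 5 windows held 35 to 41, against 4 to 24 around them. Just beyond its far end the counts were 24 and then 8. At Smoc1 (a matricellular protein) and Slc8a3 (chr12:81000001-81300000), 3 windows held 34 to 42, against 9 to 17. The windows were picked by shared regions, and regions of any kind differed less: the 7 stretches together held 385 shared regions and 627 regions of any kind per Mb, against 71.3 and 459 in the rest of chromosome 12. The Syne2 windows held 63 to 73 regions of any kind, against 24 to 80 around them, and those of Smoc1 and Slc8a3 62 to 75, against 37 to 76. The single window at 50.1 Mb, with no gene, held 57, above the 15 to 45 around it. Against an equal length on either side, regions of any kind were fewer at Fut8 (60.2 against 62.5 per 100 kb). They were also fewer in the Esrrb to Zdhhc22 stretch described below (57.5 against 64.5) and alike at Syne2 (67.75 against 67.5). More were found at Smoc1 and Slc8a3 (68.3 against 51.5) and at Myt1l and Pxdn (68.3 against 62.3). The gene-free stretches also held more (57 against 35.0 and 58 against 46.5).

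The longest stretch ran from Esrrb, an orphan nuclear receptor gene, to Zdhhc22 (chr12:86400001-87000000), took in Vash1, Angel1, Lrrc74a, Irf2bpl and Cipc, and held 25 to 43 shared regions per window, against 4 to 23 around it. Another (chr12:29700001-30000000) covered parts of the neuronal factor gene Myt1l and of Pxdn, with 30 to 45 per window, against 3 to 12. The remaining 2 held no protein-coding gene, with 36 at chr12:50100001-50200000, against 0 to 12 around it, and 43 at chr12:68400001-68500000, against 1 to 21. Whether the stretches go with gene density was not tested. Of their shared regions, 60.6% lay inside genes and 3.05% at gene ends, against 36.3% and 8.28% in the rest of the chromosome.

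**Figure D3:**
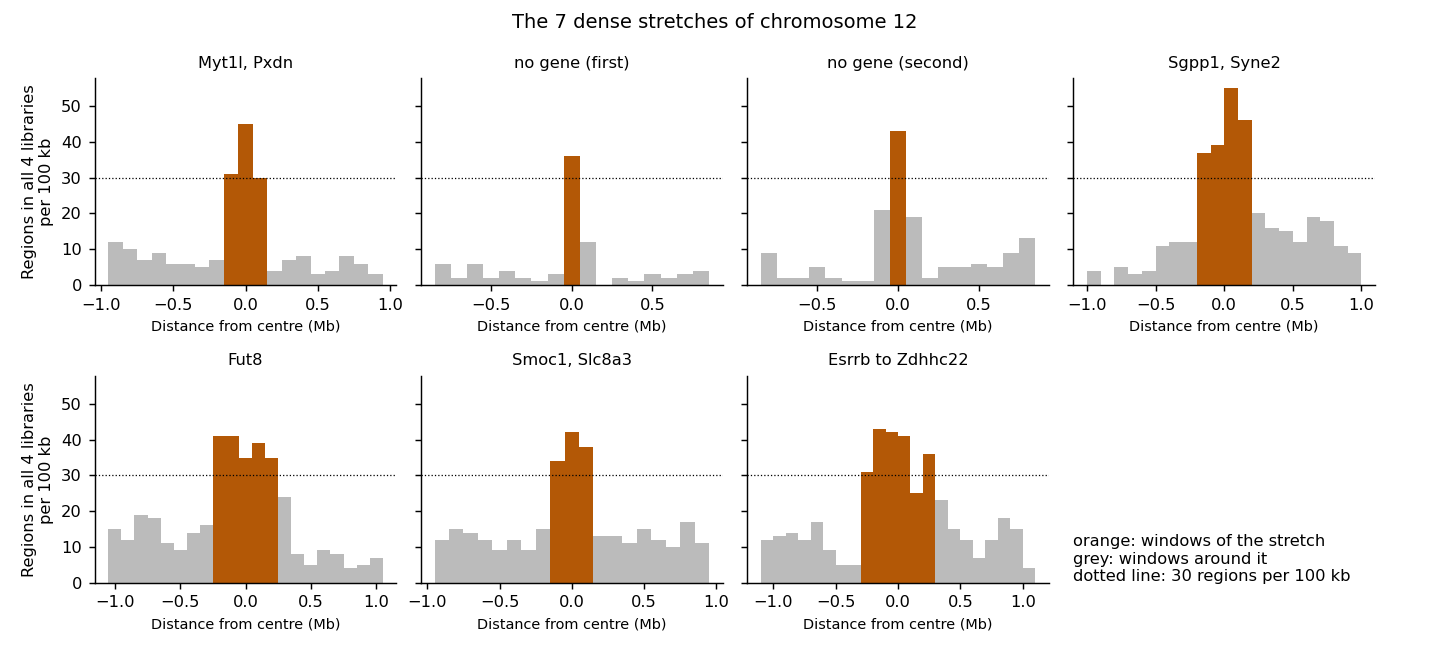
Regions present in all 4 libraries per 100 kb, by distance from the centre of each of the 7 dense stretches of chromosome 12 (orange, windows of the stretch; grey, windows up to 0.8 Mb on either side). The orange windows hold 25 to 55 shared regions and the grey ones 0 to 24.

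Since the stretches were picked by regions with a peak in every library, each library had to show them, and the values are a description. They held 609 and 528 peaks per Mb in the dDAVP libraries and 627 and 555 in the vehicle libraries, against 258 and 176 (dDAVP) and 335 and 180 (vehicle) in the rest of chromosome 12. Peaks inside were also wider, with median widths of 429 and 410 bp in the dDAVP libraries and 425 and 403 bp in the vehicle libraries. Outside they were 238 and 239 bp (dDAVP) and 254 and 242 bp (vehicle). Shared regions are wider than others throughout, and inside the stretches their median was 904 bp, against 768 bp in the rest of chromosome 12. Without the stretches chromosome 12 was still denser than the other chromosomes, by 2.56-fold and 2.47-fold in the dDAVP libraries and 2.43-fold and 2.51-fold in the vehicle libraries.

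The genes with the most shared regions inside or within 1 kb of them were largely those of the stretches. Syne2 had 136 of 199 regions shared, Myt1l 97 of 264, Fut8 89 of 140 and Smoc1 64 of 109. Ptprn2, a long gene outside the stretches, had 80 of 501. On chromosome 19, Glis3, a zinc finger factor gene active in kidney, led with 61 of 292, followed by Atrnl1 (59 of 326) and Prkg1, the cGMP-dependent kinase gene (53 of 468). The shared part was thus larger in Syne2, Fut8 and Smoc1 than in these long genes.

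Almost all genes of both chromosomes had a peak. Such a peak at a gene end was present in every library at 608 of 679 genes of chromosome 12 (89.5%) and 581 of 705 of chromosome 19 (82.4%), together 1189 of 1384 (85.9%), against 65.0% of all 21887 protein-coding genes. Chromosome 12 had the highest share of the chromosomes compared. Chromosome 19, with more peaks per Mb, was near chromosome 3 (82.3%) and below chromosome 15 (86.2%). No peak in any library, at an end or inside, was found at 17 genes (1.23%), against 13.0% of all genes. Without vehicle replicate 1, the longest list, the number was 28. With all 4 libraries, genes without a peak made up 0.736% on chromosome 12 and 1.70% on chromosome 19. Chromosomes 15 (0.387%) and 3 (0.509%), with fewer peaks per Mb, had smaller shares. Where peaks are dense a window around a gene end meets one more often, whatever the gene, so these shares are not independent of the density. Each library could have its peak at either end, so the 4 need not share a region. Serpina1e, counted here, had 0 shared regions.

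**Figure D4:**
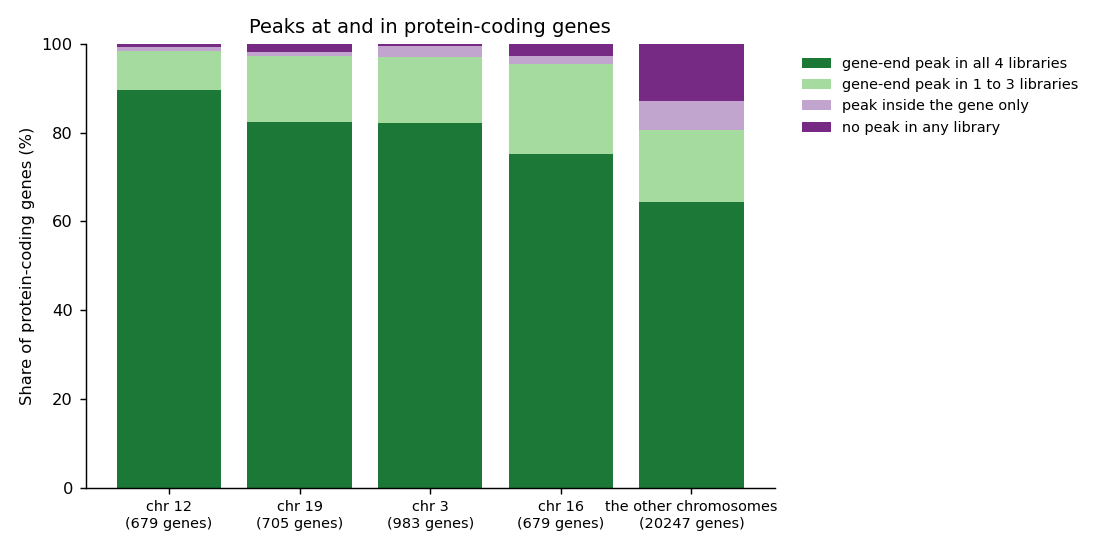
Share of protein-coding genes (vertical axis, percent) whose ends had a peak in all 4 libraries, in 1 to 3 libraries, with a peak inside the gene only, or with none, for chromosomes 12, 19, 3 and 16 and the other chromosomes together. The darkest green part is 89.5% on chromosome 12 and 82.4% on chromosome 19, and the purple part without a peak is 0.736% and 1.70%, against 12.7% on the other chromosomes.

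The genes without a peak were of few kinds. All 12 on chromosome 19 encode odorant receptors, single-exon coding genes used in the olfactory epithelium: Olfr1442, Olfr1450, Olfr1451, Olfr1453, Olfr1457, Olfr1458, Olfr1461, Olfr1465, Olfr1471, Olfr1480, Olfr1496 and Olfr1499. Each had a region nearby, between 1.08 and 3.87 kb from the gene. They belong to a cluster of 63 such genes on this chromosome (chr19:11828077-13919972), of which 14 had a gene-end peak in all 4 libraries and 37 in 1 to 3. Elsewhere in the genome, 41 of 1047 odorant receptor genes had one in all 4 libraries and 791 (75.5%) had no peak, so the cluster of chromosome 19 had a peak far more often than its kin. Whether this goes beyond the density of the chromosome was not tested.

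On chromosome 12 the 5 genes were Crip1 and the predicted genes Gm32719, Gm46305, Gm6803 and LOC115489384. Crip1, whose CpG-rich promoter is shown above, had a shared region 1.05 kb from the gene, just beyond the window of 1 kb. The position that the gene table gives for LOC115489384 lies in the first 3 Mb, where no peak was called on this chromosome, with the nearest region 2938 kb away, so nothing can be read from it. The other predicted genes had a region within 1.51 to 3.78 kb.

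A further 12 genes had peaks inside the gene and none at its outer ends in any library. Of 1181 genes with a promoter in the RefSeq table, 844 (71.5%) had an annotated start under a peak in all 4 libraries. At Fth1, the ferritin heavy chain gene, and Atad2b, a bromodomain ATPase gene, the outer end is not the start under the peak. The start of Fth1 2.05 kb inside the gene had peaks of 1200 and 1303 bp in the dDAVP libraries and 1182 and 1266 bp in the vehicle libraries. That of Atad2b, 2.95 kb inside, had 1502 and 1495 bp in the dDAVP libraries and 1514 and 1525 bp in the vehicle libraries. Both are thus covered at a start in every library. No covered start was found at Catsperb, a sperm calcium channel subunit gene with 17 shared regions inside it, at Abcb5 (7), Heatr4 (6) or Agmo (4), or at Cyp2c39 (11), Cyp2c50 (2) and Cyp2c65 (0).

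**Figure D5:**
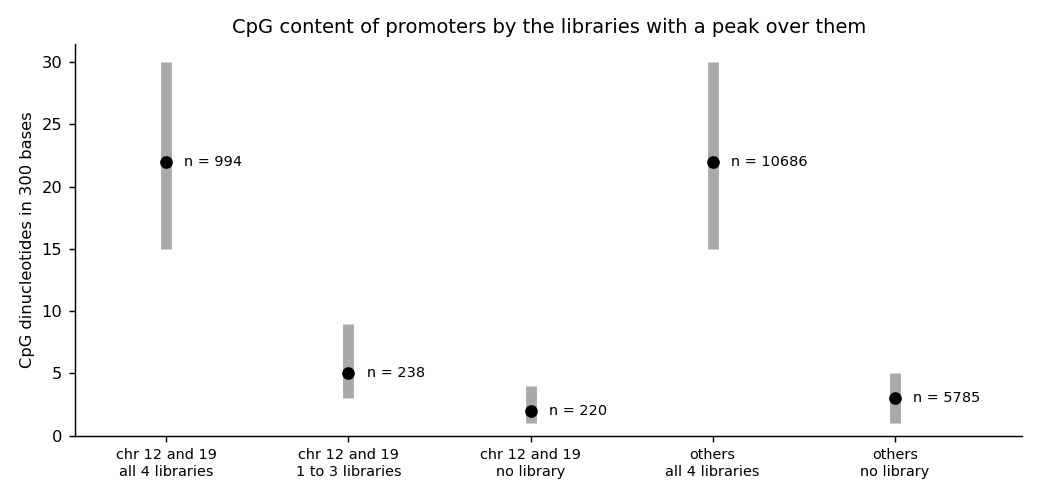
Number of CpG dinucleotides in the 300 bases around an annotated start (vertical axis; point, median; bar, middle 50% of promoters), by the number of libraries with a peak over those bases. On chromosomes 12 and 19 the median is 22 with a peak in all 4 libraries, 5 in 1 to 3 libraries and 2 in none.

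Over all promoters, covered ones were richer in CpG than uncovered ones, although Crip1 and Flrt2 above are uncovered and hold as many as some covered promoters. On chromosomes 12 and 19, 994 promoters (250 bases before to 50 after a start) lay under a peak in all 4 libraries, with a median GC content of 63.0% and 22 CpG. The 220 under none had 40.0% and 2 CpG, and the 238 with a peak in 1 to 3 libraries 51.0% and 5 CpG. The other chromosomes gave 62.3% and 22 CpG for covered promoters and 45.0% and 3 CpG for uncovered ones, so the higher density of chromosomes 12 and 19 went with no other composition of covered promoters. A GC box (GGGCGG, either strand) was in 66.9% of the covered and 4.09% of the uncovered promoters, against 46.7% of all promoters in the table. The cAMP response element that CREB binds (TGACGTCA, which reads the same on both strands) was in 3.02% and 0.455%, against 2.26% of all, and is in the Irf2bpl promoter above. A TATA box (TATAAA, either strand) was in 5.63% and 29.1%, against 12.7% of all. A match is no more than letters, and these windows say nothing of a factor's binding.

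Gene lists were counted by gene-end peaks in all 4 libraries, with the widest such peak per library as the value. That peak can lie at a different end of the gene in each library. All listed genes lie on chromosomes 12 and 19, so a list is read against the 85.9% of genes there, beside 65.0% of all genes, and a short list at or near its full count is not set apart. Early and dimerizing transcription factors had one in all 4 libraries at 10 of 10, among them Fos (1504 and 3040 bp in the dDAVP libraries, 2643 and 2078 bp in the vehicle libraries) and Fosl1, its relative in AP-1. The widths at Fos differed by library, and those of the 2 treatments overlap. The NF-kB pathway stood at 5 of 5, from its subunit gene Rela to the inhibitor gene Nfkbia (1783 and 1529 bp in the dDAVP libraries, 1564 and 1521 bp in the vehicle libraries). Factors of the nephric duct and kidney stood at 9 of 9. Pax2, needed for the nephric duct, had 572 and 380 bp in the dDAVP libraries and 490 and 623 bp in the vehicle libraries, and the groups overlap.

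Genes of cAMP and G protein signalling, the pathway that vasopressin uses, had one at 9 of 10. Adrb1, the beta-1 adrenergic receptor gene, had 2332 and 2332 bp in the dDAVP libraries and 2286 and 1020 bp in the vehicle libraries, with vehicle replicate 2 apart from the rest. The exception was Akap6, with a gene-end peak in 3 libraries and the wide shared region given above in its body. Tubule transport genes stood at 5 of 6, with the anion exchanger gene Slc26a3 in 2 libraries, organic anion transporters at 7 of 10 and housekeeping genes at 17 of 18, where Fth1 was the exception described above.

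Genes of other organs and cell types were covered as well. Neuronal genes had such a peak in every library at 7 of 8, genes of liver at 13 of 22 and of leukocytes at 5 of 8, the last 2 lists being below the 85.9% of these chromosomes, and none of these list genes lacked a peak altogether. Among defining markers, those of intercalated cells, which also belong to the collecting duct, had one in all 4 libraries at 2 of 2. Those of proximal tubule (3 of 3), neurons (3 of 3), leukocytes (3 of 3) and liver (3 of 4) had one too. With 85.9% of all genes on these chromosomes having one, such short lists are not set apart. None of the principal cell markers lies on chromosome 12 or 19, so the line's own cell type cannot be set beside these. Flrt2 alone in the neuronal list had its peak in the vehicle libraries and neither dDAVP library. The liver genes without one in all 4 libraries were 9 of the Cyp2c cluster, of which 4 of 15 members had one, against 18 of 23 Serpina genes.

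Hairpins of miRNAs gave a further readout. In the cluster of the imprinted Dlk1-Dio3 domain (58 hairpins, chr12:109563692-110278129) a peak lay within 1 kb of 21 in all 4 libraries, of 37 in 1 to 3 and of none in no library. The 36.2% in all 4 libraries is below the 17 of 34 hairpins (50.0%) elsewhere on chromosome 12 and the 15 of 37 (40.5%) on chromosome 19, of which 4 each had none. On the other chromosomes, chromosome 18 left out, 25.7% of 876 hairpins had one in all 4 libraries and 43.6% in none. Neighbouring hairpins share peaks, so they are not separate observations.

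Treatment was compared over the libraries, 2 against 2, where an exact permutation test cannot give a two-sided p below 0.333. Chromosomes 12 and 19 held 48927 and 33690 peaks in the dDAVP libraries and 62213 and 34480 in the vehicle libraries, and the groups overlap. The ratio of the means was 0.854 (exact permutation p = 0.667). The covered length was 14.1 ± 3.50 Mb in the dDAVP libraries and 17.1 ± 7.30 Mb in the vehicle libraries (SD, n = 2 each, exact permutation p = 0.667), a ratio of 0.826. These chromosomes took 16.6 ± 0.293% of a library's peaks with dDAVP and 16.2 ± 0.613% with vehicle (SD, n = 2 each, exact permutation p = 0.667). Vehicle replicate 1 decided the direction of these 3 values. Without it the ratio of peaks was 1.20, that of covered length 1.18 and the difference in share -0.0794 percentage points. Without dDAVP replicate 2 the ratio of peaks was 1.01. The median peak width was 246 and 247 bp in the dDAVP libraries and 261 and 250 bp in the vehicle libraries. The groups do not overlap there, with a difference of -9.0 bp and the smallest p the design allows (exact permutation p = 0.333), so it cannot be told from the spread between libraries.

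Regions found with 1 treatment alone, in both of its libraries, were few. There were 1460 for dDAVP (1.74% of the regions, against 1.61% in the whole genome) and 3274 for vehicle (3.89%, against 3.35%). Both shares lie near the genome's, and the longer list of vehicle replicate 1 feeds the second. With 1 library left out the definitions loosen, and the counts lay between 2294 and 11551 for dDAVP and between 5109 and 22578 for vehicle, each library moving both by over 1.5 times. Gene ends held 44 of those found with dDAVP alone (3.01%) and 86 of those found with vehicle alone (2.63%). Regions with a peak in any 2 libraries, the like class, had 2.55% there. The 3.70% of all regions includes the shared ones, with 9.47%. In the dense stretches 6 regions (0.416%) were found with dDAVP alone and 29 (2.01%) with vehicle alone. In the rest of chromosome 12, where fewer regions are shared, the shares were 1.79% and 3.99%. The stretches were picked by regions in all 4 libraries, which lowers the share of any other pattern there. Nothing about treatment can thus be read from this contrast.

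The widest of these at gene ends are named with their peaks. With dDAVP only, the region at Dpf3, a chromatin remodelling subunit gene (chr12:83214540-83215135), had peaks of 310 and 516 bp, and that at Ppp1r3c, a glycogen-targeting phosphatase subunit gene (chr19:36732370-36732785), 396 and 416 bp. The others lay at the antiviral gene Rsad2, at Serpina11, at Ppp1r32 and at the muscle actinin gene Actn3. With vehicle only, the region at Dnmbp, an exchange factor gene for Cdc42 (chr19:43847046-43848206), had 831 and 360 bp, and that at Sart1, a splicing factor gene (chr19:5378247-5378961), 676 and 685 bp. The others lay at Dtnb, at Rapgef5, at the shared end of Cdca7l and Dnah11, and at Gm46650, which lies in Gfra1. All 12 regions are narrower than 1232 bp, the median of shared regions at gene ends, and no test bears on a single one.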

How the data were processed

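ATAC-seq libraries of dDAVP-treated and vehicle-treated mpkCCD cells were deposited as 4 peak lists, 1 per library. The authors deposited positions alone (chromosome, start and end), with no score, signal or read depth. Per the submitters' processing notes, MACS2, Bowtie2, cutadapt, Picard, SAMtools and bedtools were used with build mm10. Their versions and settings, duplicate removal and read shifting for the transposase are not stated in the sources used here.

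Within a list no peaks overlapped or repeated. Peaks overlapping by 1 bp were merged, and coordinates are 1-based. Gene positions and promoters are RefSeq on GRCm38.p6: all 106 entries of 10 gene lists matched, and 1181 of 1384 genes had a promoter entry. The gene table gives no exons. The members and lists were chosen with earlier results of these data known. Genes were named as the extremes of bins, widths, genes without peaks and treatment-only regions, with all lists counted, and some named items are not reported here. The limits of 30, 300 and 500 regions were set later. Exact permutation tests, two-sided, compared the treatments. Python 3.11.15, numpy 2.4.6, pandas 2.3.3 and matplotlib 3.10.9 were used, and merging was tested on simulated data.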

Additional observations from a re-analysis of the deposited data

How the results depend on the processing

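The peak density of chromosomes 12 and 19 over that of the other chromosomes, a median of 2.72 over the libraries, lay between 2.69 and 2.75 with 1 library left out and was 2.63 with the length counted as bins of 100 kb that hold a peak. The ratio of peaks, dDAVP over vehicle, lay between 0.664 and 1.20 with 1 library left out, that of covered length between 0.634 and 1.18, the difference in share between -0.0794 and 0.788 percentage points and that in median width between -14.5 and -3.5 bp. With the widest 205771 peaks of each library the difference in share was -0.0194. Replicate numbers are shared by the treatments, but the labels do not say that they pair libraries. With a replicate block the ratio of peaks was 0.877 and that of covered length 0.853 (exact permutation p = 0.5 for both, the smallest it can give), the difference in share 0.354 and that in width -9.0 bp, and no direction changed. The correlation of same-numbered deviations over 177 bins of 1 Mb was 0.476.

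With 1 library left out, regions with a peak in both dDAVP libraries only numbered 2294 to 11551, in both vehicle libraries only 5109 to 22578 and in all 15062 to 19744. With peaks at least as wide as their library's median they were 890, 1847 and 6802. An overlap of 50% of both peaks gave 2217 for dDAVP and 6465 for all 4 libraries. Genes counted as having a peak in all libraries lay between 981 and 1304 under every alternative tried. The lowest count asked for a peak within 1 kb of an annotated start, and only 1181 of the 1384 genes have a promoter entry. The highest took a peak anywhere in the gene or within 1 kb. Genes with no peak numbered 18 to 28 with 1 library left out, 30 with the wider peaks and 5 with windows of 2.5 kb. Dense windows of chromosome 12 numbered 22 with any 1 library left out, 8 with the wider peaks, 23 with a minimum of 25 shared regions and 21 with windows shifted by 50 kb, all tried after seeing the data. The cause of these differences was not tested.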
